A study of Saccharomyces cerevisiae with 16 samples.

Results

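The comparison described here is that of budding yeast cells lacking SET1 with wild-type cells, measured on 4 of the 16 spotted 2-colour arrays of the series. The arrays were chosen by their titles alone, with no use of their values. Each of the 4 carried cDNA of a set1 deletion culture and of a wild-type culture grown beside it, and each was an independent biological replicate by the deposited description. The cultures grew exponentially in YPD to which tryptophan and adenine had been added, and polyadenylated RNA was labelled. Arrays 1 and 3 had the mutant labelled with Cy5, and on arrays 2 and 4 the dyes were swapped. The other 12 arrays hold, 4 each, the histone mutant H3K4A and the combined deletions set1htz1 and set1htz1sir2, each against its own wild-type culture. They enter here through the shared estimate of the spread and where a gene of set1 is set against them. The mating type, the other markers of the strains, the extent of the deletion and the number of deletion clones are not stated in these sources. In RNA from a whole culture, a change in every cell and a change in the share of cells that express a gene cannot be told apart.

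SET1 encodes the catalytic subunit of COMPASS, the only enzyme of budding yeast that methylates lysine 4 of histone H3. The mark lies over the start of transcribed genes, where proteins with PHD fingers bind it, and its deposition depends on the Paf1 complex and on ubiquitin on histone H2B. Set1 is also known for its part in silent chromatin near telomeres, at the silent mating loci and in ribosomal DNA, and for a need in sporulation. The question the comparison addresses is which transcripts change, and where in the genome they lie, when this methylation is lost.

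Values below are log2 ratios of mutant over wild type, so that 1 is a 2-fold rise. A fitted value is the mean of both dye orientations from limma, given with its standard error, and adjusted p-values are limma's after Benjamini-Hochberg adjustment over all 5668 genes that had 3 or 4 values in set1. "Rose" and "fell" are used only at an adjusted p under 0.05. Between 5664 and 5772 array entries per set1 array had a value. Of the genes named on chromosome VII, 68 of 213 on the left arm and 75 of 278 on the right arm had no value on any set1 array, although all of them had values on other arrays of the series, so that this chromosome is described in part only.

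The dyes moved the set1 ratios as much as the mutation did. Arrays 1 and 3 correlated at 0.798 across genes and arrays 2 and 4 at 0.734, whereas pairs of opposite dye lay between -0.268 and 0.09. The difference between the 2 orientations had an SD of 0.629 across genes in set1, against 0.300 to 0.349 in the other 3 mutants, and was called for 2036 genes, 35.9% of those tested. Each gene was therefore fitted with a dye term of its own for set1 and for each other mutant. The plot of both orientations shows the extent of this: most genes spread along the falling diagonal, with opposite signs in the 2 dyes. Calls lie off that diagonal, and 420 of the 1330 called genes did not have the same sign on every array.

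**Figure D1:**
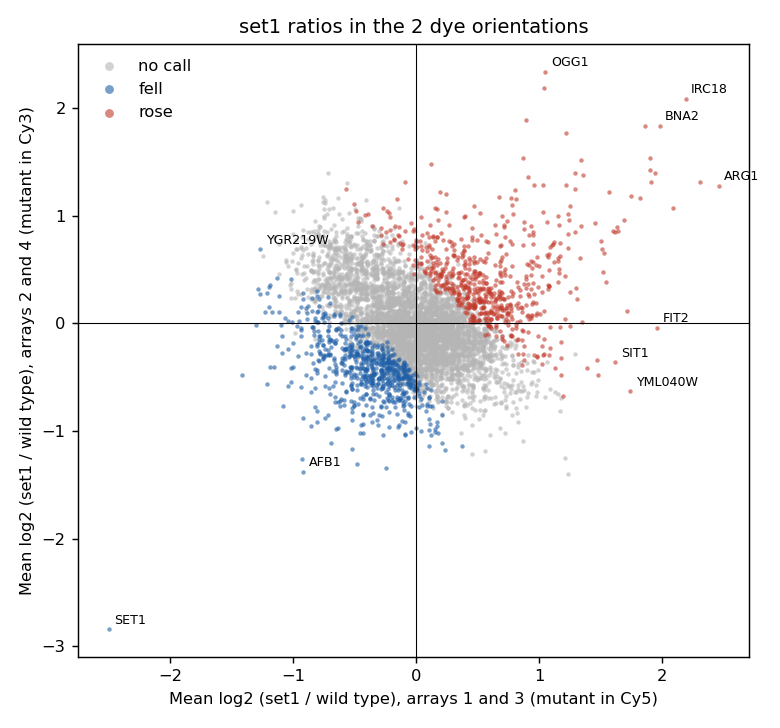
Each point is 1 tested gene, with its mean log2 ratio of set1 over wild type on the arrays with the mutant in Cy5 (horizontal) and in Cy3 (vertical). Red points rose, blue points fell and grey points had no call. SET1 is low in both orientations, IRC18 and BNA2 are high in both, and FIT2, SIT1, YML040W and YGR219W have calls although their orientations differ most.

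SET1 itself was low on every array. Its log2 ratios were -2.06, -2.94, -2.94 and -2.74, a fitted 6.36-fold fall (-2.67 ± 0.15, adjusted p = 8.3e-09). Whether its probe lies inside the deleted stretch is not known. Of the genes on either side of it by name order, ORC6, a subunit of the origin recognition complex, rose by 0.38 ± 0.09 (adjusted p = 0.0062), and MSH1, a mitochondrial mismatch repair gene, lay at 0.02 ± 0.09 with no call. The other measured subunits of COMPASS stood near the wild type. SWD2 (0.10), SWD1 (-0.04), SPP1 (-0.04) and SWD3 (-0.27) had no call. SHG1 was called as lower at -0.47 ± 0.12 (adjusted p = 0.017), but its ratios were -0.94 and -1.47 with the mutant in Cy5 and 0.48 and 0.07 with the mutant in Cy3. Its call was lost without replicate 3 (-0.33, adjusted p = 0.16) or replicate 4 (-0.36, adjusted p = 0.14).

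Genes of the wider H3K4 machinery were called about as often as all genes. Among 14 measured genes that write, erase or prepare the mark, 2 rose and 1 fell, against 11.2% that rose and 12.2% that fell over all genes tested. LEO1, a subunit of the Paf1 complex, had ratios of -0.71, -0.84, -0.60 and -0.51 and fell by 0.67 ± 0.10 (adjusted p = 2.4e-04). JHD2, the demethylase that removes the mark, rose on all 4 arrays (0.38 ± 0.09, adjusted p = 0.0052). DOT1, which methylates another lysine of histone H3, was also called (0.30 ± 0.10, adjusted p = 0.046), but lay below 0 on both arrays with the mutant in Cy5, and its call was lost without any single replicate (0.23 to 0.37). Of 16 PHD finger genes and partners that read the mark 1 rose and 3 fell, a share called of 25% against 23.5% of all genes. CTI6 of the Rpd3 deacetylase complex fell (-0.52 ± 0.09, adjusted p = 7.2e-04). The other falls among these readers, PHO23 (-0.39) and YNG2 (-0.32), lost the call without replicate 4 (adjusted p = 0.13 and 0.09). NTO1 of the NuA3 acetyltransferase rose (0.42), and lost its call without replicate 1 or 4 (adjusted p = 0.057 and 0.074). None of the 9 measured histone genes was called by limma. Their fitted values ran from -0.34 to 0.00, and 2013 of all genes had an unadjusted p under 0.05.

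Over the whole genome 1330 genes were called, 23.5% of those tested, of which 637 rose (11.2%) and 693 fell (12.2%). The median of all genes was -0.020. Most changes were small: the median rise was 0.42 and the median fall -0.40, and 46 genes rose but only 3 fell by 2-fold or more. The falls of that size were SET1, AFB1 and PER33. The count of calls was 880 without replicate 1, 749 without replicate 3 and 729 without replicate 4. Rises numbered 392 without replicate 3 and 401 without replicate 4, and falls 421, 357 and 328 without replicates 1, 3 and 4. Of the called genes 47.9% rose here, and 55.0% rose without replicate 4.

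The gene with the highest ratio was IRC18, a gene known for a role in the spore wall, which was 4.41-fold above wild type. Its ratios were 2.04, 2.0, 2.33 and 2.19 (fitted 2.14 ± 0.11, adjusted p = 7.7e-09), so that both dye orientations and all replicates lay within a narrow range. BNA2 followed, which encodes the tryptophan dioxygenase that opens the path from tryptophan to NAD. Its ratios were 1.75, 1.94, 2.20 and 1.74 (1.91 ± 0.10, 3.75-fold, adjusted p = 7.7e-09). ARG1, the argininosuccinate synthetase of arginine synthesis, rose to 1.87 ± 0.12, higher in Cy5 (2.24 and 2.69) than in Cy3 (1.0 and 1.56). The 12 largest rises with 1 sign on all arrays ended with YOL024W at 1.58. They also held YMR244W (1.85), the DNA glycosylase gene OGG1 (1.70), the epoxide hydrolase gene YNR064C (1.61) and YAR069C (1.61). OGG1 and YAR069C were higher with the mutant in Cy3, at 2.56 and 2.12 for OGG1 and 2.12 and 2.25 for YAR069C, than in Cy5, at 0.96 and 1.14 and at 1.01 and 1.06. The other 4 of the 12 were HSP32, SNO4, HSP33 and MAN2, which lie at chromosome ends and are given with their families below.

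The largest falls were smaller. AFB1, which encodes a protein that acts as a barrier to the a-factor pheromone, had ratios of -0.89, -1.51, -0.94 and -1.25 (-1.15 ± 0.10, adjusted p = 1.1e-06). PER33, a membrane protein of the endoplasmic reticulum and nuclear envelope, had -0.92, -1.40, -0.94 and -1.12 (-1.09 ± 0.09). ATO3, a transporter that exports ammonium, fell by 0.95 ± 0.10, with -1.15 and -1.69 in Cy5 and -0.56 and -0.40 in Cy3. Next came NGK1 (-0.93), NDE1 (-0.91), SST2 (-0.90), ACO1 (-0.90), YOR135C (-0.90), YNL040W (-0.89), NFG1 (-0.87), YOR289W (-0.84) and the splicing factor gene CUS2 (-0.81). All of these were below 0 on all 4 arrays. YOR135C is next to IDH2 in the order of names, and IDH2 also fell. Whether the 2 spots share signal was not tested.

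**Figure D2:**
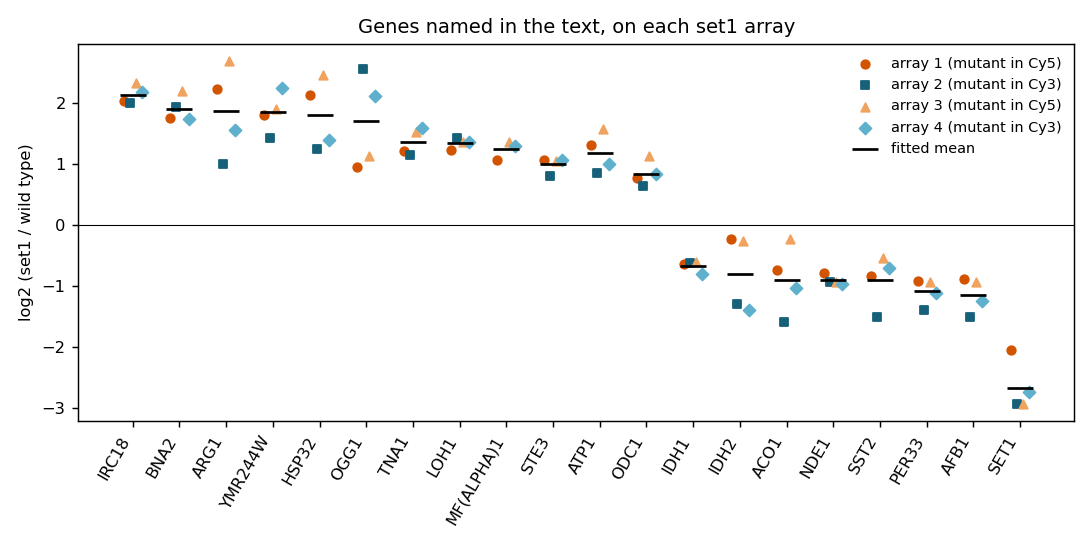
The vertical axis gives log2 of set1 over wild type for 20 genes, with 1 symbol per array and a bar for the fitted mean. Orange symbols have the mutant in Cy5 and blue symbols in Cy3. IRC18, LOH1, STE3 and NDE1 hardly differ between dyes, whereas ARG1, OGG1 and IDH2 differ by more than 1 between dyes but keep their sign.

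The place of the changed genes was not even along the chromosomes. Genes were ranked from the end of each chromosome arm in the order of their systematic names, since no genome build is named. Of the 147 measured genes at ranks 1 to 5, 63 rose, a share of 42.9% against 11.2% of all genes tested, and 8 fell (5.44% against 12.2%). At ranks 6 to 10, 46 of 149 rose (30.9%) and 10 fell. At ranks 11 to 20 the share that rose was 13.5% and further in it was 9.56%, with 13.5% and 12.5% that fell. Among the 10 outermost genes of all arms 109 of 296 rose, and the median log2 ratio was 0.156. That median was 0.17 on the arrays with the mutant in Cy5 and 0.14 on those with the mutant in Cy3, and between 0.12 and 0.20 on each array. So the median shift over all ends together was of like size in both dyes, which did not hold for each arm. Without the PAU, TIR and DAN genes 95 of 281 rose (33.8%), and without these, the COS and AAD genes, the DJ-1 family and the hexose and polyol genes 84 of 255 rose (32.9%). Many genes near chromosome ends have close copies elsewhere, so that their spots can share cDNA and the rises are not all independent.

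**Figure D3:**
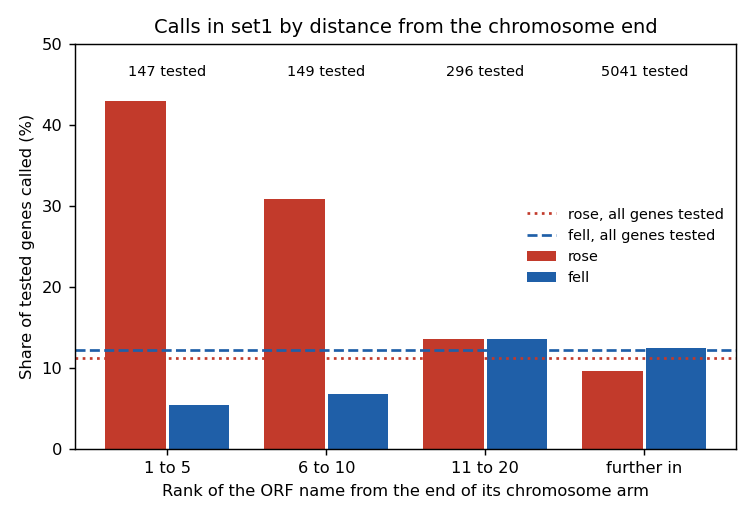
Bars give the share of tested genes that rose (red) and fell (blue) by the rank of the gene from the end of its chromosome arm. The dotted and dashed lines give the same shares over all genes tested. The share that rose is highest at the outermost ranks and near that of all genes from rank 11 inward.

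The chromosome ends differed among themselves. On the left arm of chromosome V and the right arm of XII 8 of the 10 outermost genes rose, and on the left arm of VI 7 of 10. On the left arms of X and XVI it was 6 of 9 and 5 of 8. On the left arms of II and III 0 of 10 and 0 of 8 rose by limma, and 1 fell on each. The left arm of III carries the silent locus HML, which is described below. The right arms of IV and XVI had more falls than rises, 3 against 1 of 8 and 3 against 2 of 10. The left arm of VII had no measured gene among its outermost 10. Rises were found on 29 of the 31 other arms. Single arms also differed by dye. On the right arm of XII the median of the outermost genes was 0.75 in Cy5 and 0.16 in Cy3. On the left arms of V and VI it was 0.71 and 0.37, and 0.59 and 0.23. On the left arm of IV it was -0.28 and 0.67. The left arms of II and III had 0.23 and -0.18, and -0.36 and 0.08. Over whole chromosomes the share called ran from 19.3% on VII to 36.9% on VI. Medians over chromosomes II, III and IV were -0.20, -0.21 and -0.19 in Cy5 and 0.11, 0.11 and 0.09 in Cy3.

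**Figure D4:**
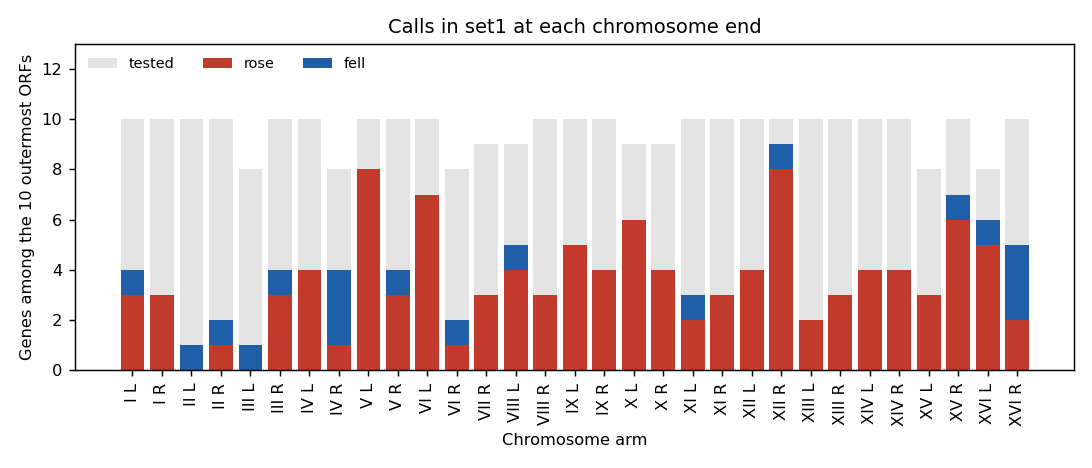
For each chromosome arm the grey bar gives how many of the 10 outermost ORFs were tested, the red part how many rose and the blue part how many fell. The left arms of V and VI and the right arm of XII hold the most rises, and the left arms of II and III none.

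Genes for the transport and oxidation of unusual sugars and polyols were mostly higher. Of 12 measured members 11 rose (91.7% against 11.2% of all genes), all with 1 sign on every array. The median was 0.705 against -0.020 for all genes. MAN2 and DSF1 encode near-identical mannitol dehydrogenases and can share signal. Other members may have close copies as well, so the 11 rises are not all independent. MAN2 had ratios of 1.77, 1.36, 2.10 and 1.43 (1.67 ± 0.09, adjusted p = 4.0e-08). DSF1 had 1.77, 1.15, 1.88 and 1.18 (1.5 ± 0.08). The sorbitol dehydrogenase gene SOR1 rose by 0.97 ± 0.09 and the transporter gene HXT17 by 0.89 ± 0.08. The member without a call was HXT8, named after its values were seen, at -0.01. Among 12 other genes of hexose transport and glucose sensing 2 rose and 2 fell (16.7% each, against 11.2% and 12.2% of all genes). The rises numbered 1 without replicate 1, 3 or 4 and the falls 1 without replicate 1, 2 or 3. HXT2, a transporter of high affinity for glucose, fell on all 4 arrays (-0.72 ± 0.09, adjusted p = 4.1e-05), and HXT10 rose by 0.72 ± 0.12.

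The PAU, TIR and DAN genes encode serine-rich mannoproteins of the cell wall, many of them known to be induced without oxygen, and the PAU genes are near-identical. Of 27 measured members 20 rose (74.1% against 11.2% of all genes), 15 of them with 1 sign on all arrays. The median was 0.420. PAU20 had ratios of 0.50, 0.71, 0.90 and 0.54 (0.66 ± 0.08, adjusted p = 6.7e-05), PAU17 a fitted 0.61 and PAU23 0.60. The related cell wall gene TIP1, which lies far from a chromosome end, went the other way (-1.32, -0.42, -0.76 and -0.74; -0.81 ± 0.13). The DJ-1 family, of chaperone-like proteins that act on toxic aldehydes, rose in all 4 of its members. HSP32, SNO4 and HSP33, at ranks 4 or 5 from their chromosome ends, lay at 1.81, 1.72 and 1.67. Their coding sequences are near-identical, so they are not independent observations, and HSP33 was fitted on 3 arrays. HSP31, the more distant member at rank 13, rose less (0.41, 0.62, 0.44 and 0.81; 0.57 ± 0.09). Not all families of chromosome ends moved. None of 10 COS genes and none of 7 AAD genes was called by limma, against 23.5% of all genes, with medians of -0.042 and 0.007.

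**Figure D5:**
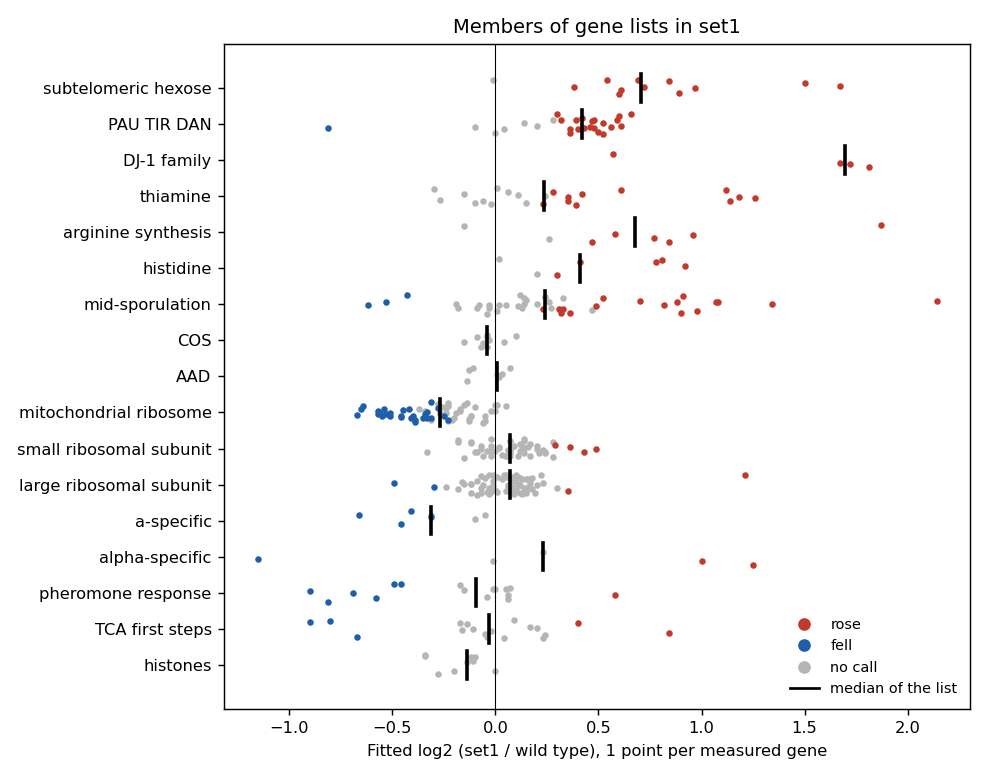
Each point is 1 tested gene of a list, at its fitted log2 ratio of set1 over wild type. Red points rose, blue points fell, grey points had no call, and the bar is the median of the list. The polyol and hexose genes and the PAU genes lie mostly above 0, the COS and AAD genes around 0, and the genes of the mitochondrial ribosome mostly below 0.

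Thiamine synthesis genes, some of which lie near chromosome ends next to those above, also rose in part. Of 22 measured members 11 rose (50% against 11.2% of all genes) and 0 fell, with a median of 0.234. The near-identical genes THI5, THI11 and THI12 of pyrimidine precursor synthesis lay at 1.18, 1.26 and 1.12, where THI11 had values on 3 arrays. THI4, which makes the thiazole precursor and has no close copy, had ratios of 1.32, 0.48, 1.68 and 1.06 (1.14 ± 0.11, adjusted p = 6.7e-06). The rises numbered 6 without replicate 3, where 2 members were called as fallen, and 5 without replicate 4.

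Changed genes tended to have neighbours that changed the same way. Over 4874 pairs of measured genes that are adjacent and do not overlap, 18.9% of the neighbours of a risen gene rose, against 11.1% of all genes in those pairs. Of the neighbours of a fallen gene 18.1% fell, against 12.5%. For rises the share was 20.9% in divergent pairs, which share an upstream region, 20.4% in tandem pairs and 13.7% in convergent pairs, against 11.5%, 11.1% and 10.5%. Each of these shares counts some genes more than once, and the pairs near chromosome ends are among them. The strongest pair was IRC18 with its divergent neighbour LOH1, another gene of the spore wall. LOH1 had ratios of 1.23, 1.43, 1.36 and 1.36 (1.34 ± 0.09, adjusted p = 4.7e-08). In the copper metallothionein cluster CUP1-1, YHR054C and CUP1-2 rose together (1.12, 1.32 and 1.13). This cluster is a tandem repeat whose copy number is known to vary among strains, and its copies share sequence. At the right end of chromosome XIV, YNR071C (0.94), HXT17 (0.89) and MAN2 (1.67) rose in a row. AFB1 and NFG1, which lie close together on chromosome XII, both fell.

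Genes of the middle phase of sporulation, which build the spore wall and are held silent in growing cells by the Sum1, Rfm1 and Hst1 repressor complex, were often higher. Of 43 measured members 17 rose and 3 fell, against 11.2% and 12.2% of all genes. The median was 0.242. Beside IRC18 and LOH1, the spore wall glucan enzyme gene GAS4 had ratios of 1.14, 1.03, 1.17 and 0.97 (1.08 ± 0.10, adjusted p = 1.5e-06). DIT2, an enzyme of the dityrosine layer, had 1.02, 0.76, 1.56 and 0.94 (1.07 ± 0.11). The members that fell, named after their values were seen, were SPR6 (-0.62), RRT12 (-0.53) and SMK1 (-0.43). The count of rises was 11 without replicate 2. Of the repressor genes themselves, RFM1 fell (-0.60, -0.97, -0.12 and -0.86; -0.64 ± 0.12, adjusted p = 0.0026), while SUM1 (0.01) and HST1 (-0.14) had no call. SUM1 had opposite signs in the 2 dyes. In the earlier meiotic program 5 of 23 genes rose and 1 fell (21.7% and 4.35%, against 11.2% and 12.2% of all genes). REC8 (0.57) and MEI4 (0.44), each fitted on 3 arrays, were the highest of these. Without any single replicate 2 or 3 rose.

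In NAD metabolism, 2 genes stood far above the others. Besides BNA2 it was TNA1, the transporter of nicotinic acid, with 1.21, 1.15, 1.52 and 1.60 (1.37 ± 0.13, adjusted p = 1.7e-06). Both are known targets of the Hst1 deacetylase. Of the 16 measured genes of this list 3 rose and 0 fell (18.8% and 0%, against 11.2% and 12.2% of all genes). The other rise was that of ISN1 (0.28), whose call was lost without replicate 1, 2 or 4 (adjusted p = 0.099, 0.066 and 0.065). The list as a whole had a median of -0.024.

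Among the pathways of amino acid synthesis, arginine and histidine had the most rises. In arginine synthesis 6 of 8 measured genes rose (75% against 11.2% of all genes), with a median of 0.675. Besides ARG1, the ornithine carbamoyltransferase gene ARG3 had 1.14, 0.56, 1.32 and 0.84 (0.96 ± 0.08, adjusted p = 1.0e-06). ARG7, which acts in the synthesis of ornithine, rose by 0.84. Of 11 measured genes of arginine control and breakdown 2 fell (18.2% against 12.2% of all genes) and 0 rose. In that list 5 genes lay above 0, and the median was -0.122. The breakdown gene CAR2 was the lowest (-0.67, -0.97, -0.56 and -0.43; -0.66 ± 0.10, adjusted p = 2.8e-04). In histidine synthesis 5 of 7 rose (71.4% against 11.2% of all genes). HIS4 had 0.57, 0.86, 0.85 and 0.97 (0.81 ± 0.09, adjusted p = 9.4e-06), HIS5 a fitted 0.78 and HIS6 0.41. HIS7 rose by 0.30 but lost its call without any single replicate (adjusted p = 0.069 to 0.10). HIS1 (0.20) and HIS2 (0.02) had no call. HIS3, also counted among the 5, was the highest at 0.92 ± 0.12 with almost equal ratios on all arrays (0.88, 0.92, 0.97 and 0.89). But it is a common marker gene in laboratory strains, and no source used here says whether the strains differ in it. HIS3 lay at 1.25 in set1htz1 and 1.61 in set1htz1sir2. HIS4, HIS5, HIS6 and HIS7 lay at 0.06, 0.38, 0.03 and 0.03 in set1htz1. In set1htz1sir2 they lay at -0.46, 0.09, 0.36 and -0.23. The cause of the HIS3 values was not tested. The other marker genes measured, LYS2 (0.23), TRP1 (0.16), CAN1 (0.04), ADE2 (-0.12) and MET17 (-0.34), had no call. The other pathways lay near or below the 11.2% that rose over all genes, except 2 lists. These were the aromatic one at 15.4% and that of glutamate and nitrogen genes, where 3 of 15 rose (20%) and 3 fell. The falls in the latter numbered 1 or 2 without any single replicate. Of 11 genes for branched-chain amino acids 1 rose and 1 fell, and the rise was lost without any single replicate. Of 9 lysine genes and of 22 sulfur and methionine genes 0 rose and 2 fell by limma, and each pair of falls became 1 without any single replicate. Among 13 aromatic amino acid genes 2 rose, led by TRP2 at 0.67 ± 0.12.

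Nuclear genes for the mitochondrial ribosome were often lower. Of 61 measured genes 28 fell (45.9% against 12.2% of all genes) and 0 rose, 18 of the falls with 1 sign on all arrays, and only 3 of the 61 had a fitted value above 0. The median was -0.270, and it was -0.26 on the arrays with the mutant in Cy5 and -0.27 on those with the mutant in Cy3. MRP2 had ratios of -0.74, -0.45, -0.45 and -0.97 (-0.65 ± 0.13, adjusted p = 0.0019). MRPL8 had -0.36, -0.81, -0.20 and -0.92 (-0.57 ± 0.10). RSM27 was the lowest at -0.67, with a wide spread (-0.79, 0.04, -1.47 and -0.47). MRPL27 (-0.64) lost its call without replicate 3 or 4 (adjusted p = 0.097 and 0.13). The count of falls was 17 without replicate 1, 13 without replicate 3 and 12 without replicate 4, with 0 rises in each case. The cytosolic ribosome did not follow. Of 54 genes of its small subunit 4 rose (7.41% against 11.2% of all genes), none with 1 sign on all arrays. Without any single replicate 0 or 1 rose, and the median was 0.46 in Cy5 and -0.31 in Cy3. RPS4A, for example, had 1.77, -0.74, 1.18 and -0.23, and lost its call without replicate 1 or 4 (adjusted p = 0.061 and 0.064). Of 75 genes of the large subunit 2 rose and 2 fell (2.67% each, against 11.2% and 12.2% of all genes). RPL32 rose in both dyes (0.97, 1.60, 0.77 and 1.48; 1.21 ± 0.08, adjusted p = 4.7e-08).

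Elsewhere in mitochondrial metabolism single enzymes moved. In the citrate cycle from citrate to 2-oxoglutarate and the genes around it 3 of 18 fell, 16.7% against 12.2% of all genes. In the same list 2 rose (11.1% against 11.2%), 1 of them with 1 sign on all arrays. The 3 that fell encode enzymes of consecutive steps. Aconitase, ACO1, had -0.74, -1.60, -0.23 and -1.03 (-0.90 ± 0.13, adjusted p = 2.0e-04). The subunits of NAD-dependent isocitrate dehydrogenase were IDH1 (-0.64, -0.62, -0.60 and -0.81; -0.67 ± 0.08, adjusted p = 3.6e-05) and IDH2 (-0.23, -1.29, -0.27 and -1.40; -0.80 ± 0.11). All 3 fell in every setting tried. ODC1, a mitochondrial carrier of oxodicarboxylates such as 2-oxoglutarate, rose (0.77, 0.64, 1.13 and 0.84; 0.84 ± 0.10, adjusted p = 3.0e-05). NDE1, the NADH dehydrogenase on the outer face of the inner membrane, had -0.79, -0.94, -0.94 and -0.97 (-0.91 ± 0.10, adjusted p = 2.5e-05). ATP1, the alpha subunit of ATP synthase, rose (1.32, 0.86, 1.58 and 1.0; 1.19 ± 0.08, adjusted p = 7.0e-07). Of the 31 measured genes of electron transport and ATP synthase 8 rose and 2 fell (25.8% and 6.45%, against 11.2% and 12.2% of all genes). The rises numbered 3, 4 and 5 without replicates 2, 3 and 4. The other fall was that of QCR6 (-0.48), lost without replicate 3 or 4 (adjusted p = 0.11 and 0.12).

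Mating genes gave a mixed picture. In yeast the cell type is set by the MAT locus, and a cells, alpha cells and haploids express their own gene sets. Among 5 alpha-specific genes 2 rose and 1 fell (40% and 20%, against 11.2% and 12.2% of all genes). The alpha-factor gene MF(ALPHA)1 had ratios of 1.06, 1.37 and 1.29 on arrays 1, 3 and 4 and no value on array 2 (1.25 ± 0.14, adjusted p = 5.3e-05). STE3, the receptor for a-factor, had 1.07, 0.81, 1.05 and 1.06 (1.0 ± 0.11, adjusted p = 3.9e-05). AFB1 fell as given above, and MF(ALPHA)2 (0.23) and SAG1 (-0.01) had no call. Among 7 a-specific genes 4 fell (57.1% against 12.2% of all genes) and 0 rose, but the falls were small or split by dye. The a-factor gene MFA1 had -1.09, -1.51 and -0.01 on arrays 1, 3 and 4. AGA2 had -0.49, -0.71, -0.23 and -0.40 (-0.46 ± 0.11), and lost its call without replicate 1 or 2 (adjusted p = 0.076 and 0.078). BAR1 (-0.41) and STE6 (-0.31) were not below 0 on array 3, and the count of falls was 1 without replicate 1, 1 without replicate 2 and 2 without replicate 4. MFA2 (-0.05), ASG7 (-0.10) and the alpha-factor receptor gene STE2 (-0.31) had no call, STE2 with ratios of 0.63 and 0.49 in Cy5 and -1.40 and -0.97 in Cy3. Of 9 haploid-specific genes 3 fell (33.3% against 12.2% of all genes), and 0 or 1 without any single replicate. In set1htz1sir2, against its own wild-type culture, the alpha-specific genes STE3, SAG1 and AFB1 lay at -4.85, -4.96 and -5.06. The a-specific genes BAR1, STE6 and STE2 lay there at 0.22, -0.05 and -0.23. The set1 ratios alone do not show the mating type of a strain, and it was not tested.

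Among 16 measured genes of the pheromone response 6 fell (37.5% against 12.2% of all genes) and 1 rose, while 9 had no call and the median was -0.096. The falls numbered 6 in each fit without a replicate. SST2, which turns the pheromone signal down by acting on its G protein, had -0.84, -1.51, -0.54 and -0.71 (-0.90 ± 0.14, adjusted p = 3.5e-04). AGA1, the anchor of the agglutinin, had -0.98, -1.40, -0.67 and -0.17 (-0.81 ± 0.17), and PRM5 fell by 0.69 ± 0.09. FUS2, which acts in cell fusion, rose (0.58 ± 0.10, adjusted p = 7.0e-04). At and around the mating loci of chromosome III 3 of 24 measured genes rose and 6 fell (12.5% and 25%, against 11.2% and 12.2% of all genes). The falls there numbered 2 without replicate 3 and 2 without replicate 4. The alpha2 genes at HML and MAT were lower, at -0.68 ± 0.16 for HMLALPHA2 and -0.62 ± 0.14 for MATALPHA2, and HMRA2 lay at -0.51 ± 0.15. Each of these calls was lost without replicate 3 or without replicate 4 (adjusted p = 0.061 to 0.27), and HMRA2 also without replicate 1 (adjusted p = 0.09). The alpha2 genes are copies of 1 sequence, which HMRA2 shares in part, so their spots cannot be told apart. YCR102C, at rank 6 from the right end of chromosome III, rose (0.29, 0.74, 0.62 and 0.86; 0.63 ± 0.09). Of 10 SIR and HST family genes 1 was called (10% against 23.5% of all genes). This was RAP1 (-0.29), and that call was lost without any single replicate (adjusted p = 0.063 to 0.17). In the SWR1 group, which places the histone variant H2A.Z, BDF1 fell (-0.54, -0.29, -0.51 and -0.86; -0.55 ± 0.09, adjusted p = 4.9e-04). The H2A.Z gene HTZ1 had 0.45, 0.41, 0.04 and 0.48 (0.34 ± 0.11, adjusted p = 0.038), a call lost without replicate 1, 2 or 4 (adjusted p = 0.24, 0.10 and 0.16).

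Several smaller groups held changes of single genes. In base excision repair OGG1 rose and 5 of 11 genes fell (45.5% against 12.2% of all genes). Among the falls were the DNA glycosylase gene NTG1 (-0.25, -0.51, -0.56 and -0.81; -0.53 ± 0.10, adjusted p = 9.3e-04) and TPP1 (-0.47 ± 0.10). The falls numbered 3 without replicate 3 and 3 without replicate 4. Of 14 DNA damage response genes 1 rose (7.14% against 11.2% of all genes). It was the ribonucleotide reductase gene RNR4 (0.65, 0.30, 0.70 and 0.67; 0.58 ± 0.09). Among 10 ammonium and peptide transport genes 5 fell and 1 rose (50% and 10%, against 12.2% and 11.2% of all genes). The dipeptide transporter gene PTR2 had -0.64, -0.92, -0.79 and -0.79 (-0.79 ± 0.10, adjusted p = 3.4e-05) and OPT1 -0.59, while OPT2 rose to 1.24 ± 0.11. The falls numbered 3 without replicate 2 and 3 without replicate 4. In the galactose pathway the divergent genes GAL1 (0.76) and GAL10 (0.92) and the sensor gene GAL3 (0.72) rose on all arrays. The other 6 of 9 measured genes had no call, so that 33.3% rose against 11.2% of all genes. Among general stress genes 4 of 33 rose and 5 fell, close to the shares over all genes (12.1% and 15.2% against 11.2% and 12.2%). GLG2, of glycogen synthesis, rose on all arrays (0.49), and YGP1 (-0.68), HXK1 (-0.60) and PGM2 (-0.60) were below 0 on all arrays. The rises there numbered 1 or 2 without any single replicate, and the falls 3 or 4. None of 32 proteasome genes rose by limma. In this list 2 fell (6.25% against 12.2% of all genes), among them RPN11 (-0.61 ± 0.09). The cell wall mannoprotein gene HPF1 rose to 1.23 ± 0.12. In the iron regulon 4 of 29 rose and 4 fell (13.8% each, against 11.2% and 12.2% of all genes). There were 1 or 2 falls without any single replicate and 2, 1 and 1 rises without replicates 1, 2 and 3. FIT2 had 1.76, 1.25, 2.15 and -1.32, and lost its call without replicate 1, 2 or 3 (adjusted p = 0.062, 0.32 and 0.14). SIT1 was above 0 in Cy5 (1.25 and 1.99) and below 0 in Cy3 (-0.12 and -0.60). Its call was lost without replicate 2 or 3 (adjusted p = 0.063 and 0.097).

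The larger changes of set1 were mostly not matched by H3K4A, which carries alanine in place of the lysine that Set1 methylates. The deposited description gives total RNA for H3K4A and mRNA for set1, while the labels give polyA RNA for both, so a difference of RNA input cannot be told apart from one of genotype. The genes in the following counts were chosen by their values in set1, which favours a larger value in set1. Of the 9 genes of the 12 largest rises that were measured in both, all 9 were higher in set1 by the limma test of the difference, against 4.93% of all genes tested, with medians of 1.81 in set1 and 0.49 in H3K4A. All 12 of the largest falls were lower in set1, against 5.76% of all genes tested, with a median of -0.90 in set1 and 0.08 in H3K4A. IRC18 lay at 0.72 in H3K4A (difference 1.42 ± 0.16, adjusted p = 6.4e-05) and BNA2 at 0.59. For IDH1, IDH2 and ACO1 the fitted values in H3K4A were above 0, at 0.23, 0.43 and 0.46, and each differed from set1 (adjusted p = 1.8e-04, 1.7e-04 and 3.6e-04). The counts of genes with a call of a difference follow by group, and the groups were not tested against each other. Of the 20 risen PAU, TIR and DAN genes 2 were higher in set1 than in H3K4A and the other 18 had no call of a difference, with medians of 0.48 and 0.33. Of the 11 risen thiamine genes none differed by limma, with medians of 0.42 and 0.35, and THI4 had 1.15 in H3K4A. A missing call does not show that they are equal. Among the 17 risen genes of mid-sporulation 15 were measured in both, and 8 were higher in set1 (medians 0.88 and 0.38). Of the 28 fallen genes of the mitochondrial ribosome 8 were lower in set1 (medians -0.43 and -0.04). For comparison, 222 of the 605 genes that rose in set1 and were measured in both were higher in set1. Of the 672 such genes that fell in set1, 208 were lower there, a share near that of the mitochondrial ribosome.

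In set1htz1 and set1htz1sir2, which also lack SET1, the fitted values of IRC18 were 2.27 and 1.96 and did not differ by a call from set1 (adjusted p = 0.6 and 0.4). OGG1 lay at 1.57 and 1.28 (adjusted p = 0.72 and 0.1). ARG1 was lower there, at 0.48 and 0.02 (adjusted p = 4.3e-05 and 9.8e-07). AFB1 was near 0 at -0.07 in set1htz1 (adjusted p of the difference = 1.1e-04) but at -5.06 in set1htz1sir2, below set1 (adjusted p = 2.0e-11). Of the 109 genes at chromosome ends that rose in set1, 103 were measured in both set1 and set1htz1, of which 8 were higher and 4 lower in set1, against 12.4% and 10.9% of all genes tested. Against set1htz1sir2 29 of 106 were higher and 13 lower in set1, against 16.3% and 17.1%. Their medians were 0.50 and 0.45 in set1 and set1htz1, and 0.51 and 0.44 in set1 and set1htz1sir2. Among all genes that rose in set1, 103 of 619 were higher and 85 lower in set1 than in set1htz1. Against set1htz1sir2 these counts were 163 and 89 of 610.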

How the data were processed

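Per the deposited description, the authors scanned the arrays on GenePix instruments, left out weak or poorly fitting spots and normalized ratios to the total signal of each sample. The deposited values are log2 ratios of mutant over wild type. They were used as deposited. The direction is that of the description, and SET1 was below 0 on all 4 set1 arrays. No source used here names the genome build or the probes. The 6282 entries, 296 of them with a prefix z, were averaged to 6074 ORFs, of which 5596 matched a RefSeq table that served for names and gene order only.

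All 16 arrays were fitted together in limma 3.58.1 under R 4.3.3, with a mean and a dye term for each mutant, and the group mean was tested against 0. A gene needed a value on 3 of the 4 set1 arrays, and missing values were left out of the fit without imputation. 58 of the called genes rest on 3 arrays. The difference from another mutant was tested from the same fit. The number of arrays limits the precision. The method was run on simulated arrays with known changes. Their noise was drawn independently from the same fitted model, so this run cannot show how errors shared by arrays affect the calls. Gene lists are described by counts and medians, with no set test. The members and lists were chosen with earlier results of these data known. Genes named are SET1, its neighbours and COMPASS, the 12 largest rises and falls with 1 sign on all arrays, up to 4 called genes per list, all members of lists of up to 8, up to 4 per place, up to 5 neighbour pairs, and the 4 with the largest dye difference. Not every gene that the rule names is reported here. Others are marked as named after their values were seen. Alternatives are given in the closing section.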

Additional observations from a re-analysis of the deposited data

Results flagged for a closer look

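For a few named genes 1 set1 array stood apart from the other 3, by a gap above Dixon's 95% critical value for 4 samples. Chance alone gives about 1 such case in 20, and 7 were found among 187 named genes with 4 values. The COMPASS gene SWD1 was at -0.62 on array 2 and between 0.11 and 0.20 on the others. PHO4, the activator of phosphate genes, was at 0.15 on array 2 and from -0.49 to -0.41 elsewhere. RNR4 was at 0.30 on array 2, against 0.65 to 0.70. MSH1 was at 0.08 on array 4, against 0.00 to 0.01. STE3 was at 0.81 on array 2, against 1.05 to 1.07. NDE1 was at -0.79 on array 1, against -0.97 to -0.94. HTZ1 was at 0.04 on array 3, against 0.41 to 0.48.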

How the results depend on the processing

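Of 177 named genes with a call, 105 kept direction and call in all 15 other settings, 72 lost the call in at least 1, and 0 called values reversed. The count of 1330 called genes (637 rose, 693 fell) became 785 (394 and 391) with no dye term and 683 (374 and 309) at an adjusted p under 0.01. On the set1 arrays alone, without the spread of the other mutants, 893 genes were called, of which 450 rose and 443 fell. Without 1 replicate in turn the calls numbered 729 to 1018, the rises 392 to 463 and the falls 328 to 555. The 109 rises and 18 falls among the 10 outermost genes of an arm became 81 to 90 and 10 to 12 without 1 replicate, and 10 fell there at an adjusted p under 0.01. The other settings, a shared dye term, centring, quantile normalization, entries without prefix z, stricter filters on missing values and robust moderation, kept each of these counts within 1.5 times. The share of rises among calls was 53.7% with each array centred, which moved the median of all genes from -0.020 to 0. Array numbers are shared by the groups. Deviations of arrays with the same number, taken for numbers 1 and 2, correlated from -0.319 to 0.22 between groups. Whether such arrays share more than a number cannot be told from these values. With the array number as a replicate block in place of the dye terms 941 genes were called, 463 of them up and 478 down.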
